A study of Mus musculus with 12 samples.

Results

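ESRP1 contacts were examined on the transcripts of 10 SR protein genes, Srsf1, Srsf2, Srsf3, Srsf4, Srsf5, Srsf6, Srsf7, Srsf9, Srsf10 and Srsf11, out of 17492 protein-coding genes whose strand was known. The genes were taken by name as a family and no value entered the rule, but earlier results of these data were known. Sites inside each gene's annotated span on its own strand were counted (GRCm38). The study used eCLIP to find where ESRP1, a splicing factor of epithelial cells, touches RNA. Ultraviolet light joins protein to RNA in this assay, and reverse transcription tends to stop at the joined nucleotide. Epidermis came from the back skin of pups on postnatal day 1, and all animals, those of the inputs included, had the genotype Esrp1FLAG/FLAG, so that endogenous ESRP1 was tagged on both alleles. The 12 libraries were 6 FLAG immunoprecipitations and 6 inputs, taken from membrane between 75 and 140 kDa. The authors deposited 3 lists of single-nucleotide sites, each called on 2 replicates together with input: list 1 from replicates 1 and 2, list 2 from replicates 3 and 4, and list 3 from replicates 5 and 6. How far the pooled replicates differed therefore cannot be seen, and since the lists carry no read counts the depth of each library is unknown.

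SR proteins bind RNA through RNA recognition motifs and recruit the splicing machinery through a tail rich in arginine and serine, usually so that a nearby exon is included. Their level is held in check by their own transcripts: many carry a poison exon, whose inclusion brings an early stop codon and decay of the RNA, and SR proteins promote this inclusion in their own and each other's RNA. In the epidermis, as in other tissues, they act alongside tissue-restricted regulators such as ESRP1, which favours RNA rich in G and U with UGG-like elements. The annotation used here gives gene spans without exons, so whether a region lies in an exon, an intron, a poison exon or an untranslated region was not analysed here.

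Bases under member sites could be read in 3 stretches of 30 nt near gene starts, from RefSeq start windows on GRCm38.p6. They are shown because they carry the contacts closest to the 5′ ends of Srsf3 and Srsf9, among them a region found in all 3 lists. Each is written 5′ to 3′ on the RNA strand with T for U, and capitals mark every nucleotide with a site in any list. The Srsf3 stretches were read from the window of Gm16196 on the opposite strand and reverse complemented.
Srsf3, chr17:29032713-29032742, plus strand: agaaccagaGGgaagcGGGTGggcctgtcg
Srsf3, chr17:29032813-29032842, plus strand: gaggtggagggaggGaggtggagttccgca
Srsf9, chr5:115327189-115327218, plus strand: ctcgggagcccgcgGgggaggctgcggcgg
Of the 9 nucleotides with a site in these stretches, 8 were G and 1 was T. Sites of all genes inside such windows were also mostly at these bases: of 3075 sites, 77.6% were at G and 18.6% at T. G made up 36.0% of the bases of windows that held a site, on the strand of the site. The share of T in these windows is not given, so whether sites favoured T was not tested. The letters TGG, searched on the RNA strand only, occurred 1 time in the first Srsf3 stretch, 2 times in the other Srsf3 stretch and 0 times in the Srsf9 stretch. Of 32817 start windows, 49.5% held TGG in their last 30 nt. The letters GTG occurred 1, 2 and 0 times in these stretches and in 39.3% of the windows, and can overlap TGG. These matches describe the letters and are not evidence of a binding element.

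All 10 SR protein genes held at least 1 ESRP1 site, and 9 held a site in each of the 3 lists. Over all protein-coding genes with a strand, 34.1% held a site in any list and 19.5% in each list. The members held 67 sites in list 1, 32 in list 2 and 57 in list 3, which was 0.091%, 0.08% and 0.106% of all sites of these lists. All 156 sites were on the strand of the gene, which was taken from RefSeq start windows and not from the sites. No site lay on the opposite strand inside the spans, which allows a share of up to 1.92% if all 156 sites were independent. They lie on 106 nucleotides in 44 regions and recur between lists, so this limit is too low. In 10605 protein-coding genes whose spans overlap no other gene, 94.9% of sites lay on the gene's own strand. Only 7 of the 10 members are such genes, and whether members differ from the others was not tested.

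A binding region is a run of same-strand sites with steps of at most 10 nt, after pooling the sites of all lists. A region was called found in all 3 lists when each list had a site in it. Such regions were present in 7 of the 10 SR protein genes (70.0%, 95% exact interval 34.8 to 93.3). These were Srsf1, Srsf2, Srsf3, Srsf6, Srsf7, Srsf9 and Srsf10. Over all protein-coding genes with a strand the share was 16.5%, among genes whose span lies between those of the shortest and the longest member it was 14.4%, and among genes with a site in any list it was 48.5%. The last 2 shares were chosen after the data were seen. The members' interval includes 48.5% and covers counting error only. Members were taken by name and are not random draws, so the interval is no test against any of these shares. All 10 members held a site, and they are too few to be placed apart from other genes with a site. Expression was not part of the data, and its part in these counts was not tested.

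The 7 genes held 10 such regions, with 3 in Srsf10, 2 in Srsf3 and 1 in each of the others. Having 2 or more was found in 6.29% of all protein-coding genes and having 3 or more in 2.57%. The median number was 1 per member and 0 per protein-coding gene. Counting only genes with such a region, it was 1 for the members and 1 for all protein-coding genes. Members are short, the median span being 7274.5 nt, where it is 16907 nt over all protein-coding genes. Per 10 kb of span the members held 0.874 such regions. Genes within their range of span held 0.162, and all protein-coding genes 0.0585. Both of these sets include the genes without such a region, so density is not separate from the share of genes that hold one. Without list 2 the members held 17 regions present in both remaining lists, in 8 genes. Fewer lists are required there, which by itself can only add regions.

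**Figure D1:**
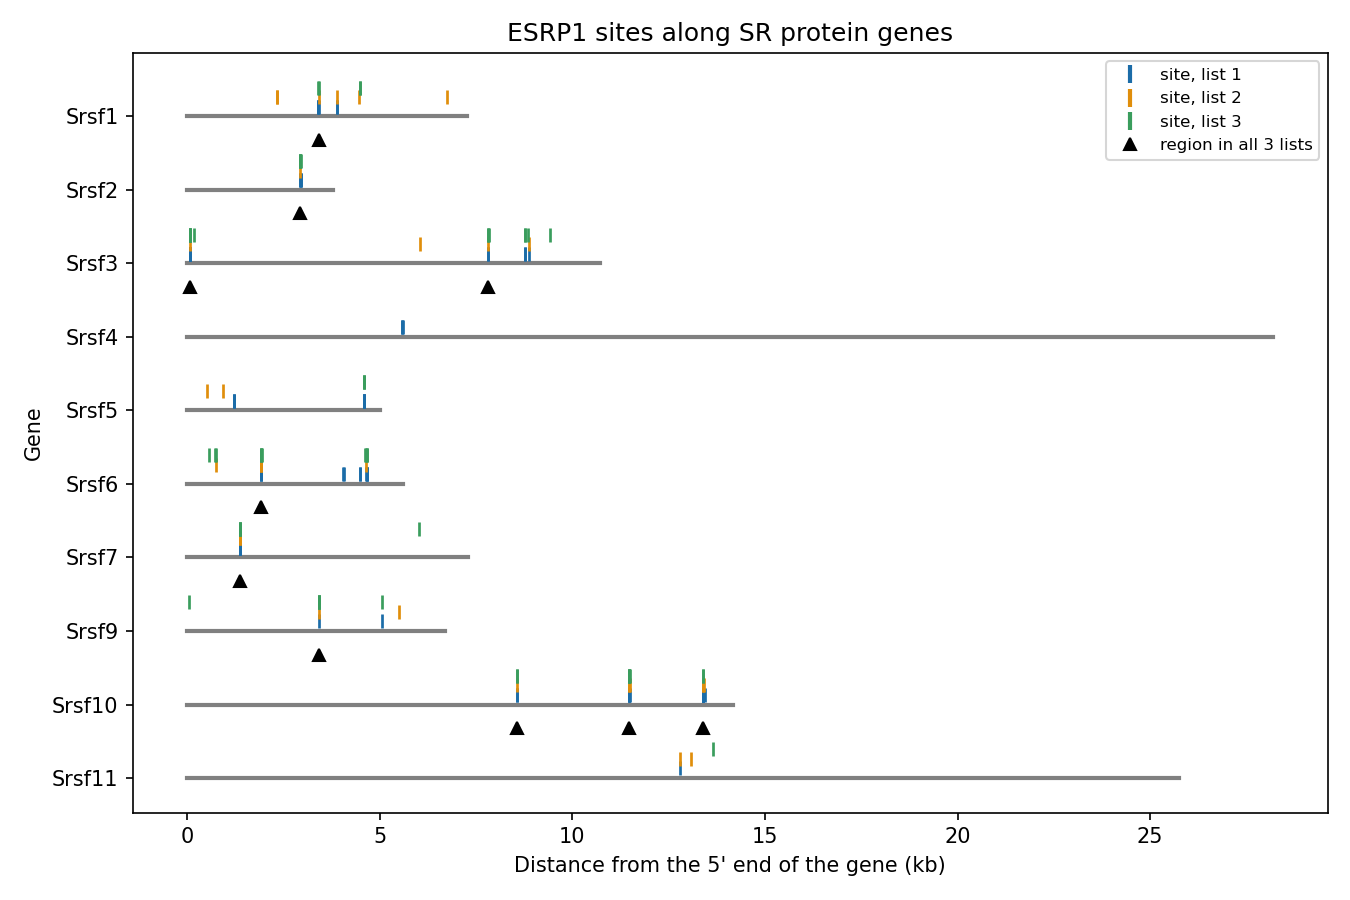
Sites along the 10 genes. The x axis is the distance from the 5′ end of each gene in kb, grey lines are gene spans, coloured ticks are sites of lists 1, 2 and 3, and black triangles mark the 10 regions found in all 3 lists. Srsf4 and Srsf11, the longest members, hold few sites, and the 3 shared regions of Srsf10 lie in its 3′ part.

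Srsf10 had the most sites of the family over the 3 lists together, but not in list 3 and not per kb of span (0.73 per list). It encodes an SR-like protein that represses splicing when it is dephosphorylated, as in heat shock and mitosis. It held 15, 7 and 9 sites in lists 1, 2 and 3, or 1.82 ± 0.193 sites per 10000 sites of a list (SD, n = 3 lists), and 3 of its 4 regions were found in all 3 lists. The shared region with the highest mean percentile of the family lay there, at chromosome 4, 135867230 to 135867235 on the plus strand, 11478 nt from the 5′ end of the gene. Its best sites scored 77.3, 54.7 and 70.0 in lists 1, 2 and 3. Against all sites of the same list these were percentiles 91.8, 90.1 and 89.6, so that the 3 lists placed it alike. The best nucleotide was the first of the region in lists 1 and 2 and the nucleotide after it in list 3. Upstream of it, a region of 2 nt at 135864305 to 135864306 had best scores of 15.4, 18.4 and 24.7, all on its first nucleotide. The third region, at 135869145 to 135869153, ended 755 nt before the 3′ end of the gene and was weak, with best scores of 5.35, 12.2 and 20.1. Sites were not shared there by all lists on any single nucleotide, since list 1 spread 7 sites over the region and lists 2 and 3 had 2 each.

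Srsf3 was next in the number of sites. SRSF3 is the smallest SR protein and also acts in mRNA export and 3′ end processing. Srsf3 held 11, 4 and 13 sites, or 1.64 ± 0.717 per 10000 (SD, n = 3 lists), and list 2 was the lowest. Of its 9 regions 2 were found in all 3 lists. The first lay at chromosome 17, 29032722 to 29032733, plus strand, only 62 nt from the 5′ end; it is the first stretch printed above, with 7 capitals. Its best scores were 21.0 in list 1, 2.74 in list 2 and 48.2 in list 3, and these fell on different nucleotides up to 10 nt apart. The other, at 29040479 to 29040481 and 2891 nt from the 3′ end, had best scores of 24.9, 5.88 and 34.1. In both regions the list 2 score was in the lowest part of its list, at percentiles 13.6 and 26.5. Between 29041429 and 29042074, 4 further regions were each found in 1 or 2 lists. Srsf3-ps, a pseudogene of Srsf3 on chromosome 11 (98624368 to 98625662), held 1, 1 and 3 sites, all on the minus strand. Reads can be shared between such copies, so counts in Srsf3 are uncertain to that extent.

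Srsf7 is the close paralog of Srsf3 and encodes an SR protein with an added zinc knuckle. It held 6, 3 and 5 sites, and all but 1 of them fell in a single region. This region, at chromosome 17, 80205996 to 80206012 on the minus strand, lay 1357 nt from the 5′ end of the gene, and at 17 nt it was the longest of the 10. Best scores of 36.5, 35.2 and 46.4 were close to each other, at percentiles 79.7, 81.9 and 80.5. With 0.831 ± 0.0903 sites per 10000 (SD, n = 3 lists), Srsf7 had the smallest spread over lists of all members.

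Srsf2 encodes SC35, an SR protein that is largely nuclear and marks nuclear speckles. It held 4, 1 and 5 sites, all within 23 nt. The shared region at chromosome 11, 116850739 to 116850744 on the minus strand, lay 842 nt before the 3′ end of the gene, with best scores of 63.2, 19.2 and 37.3. A further region, 15 nt downstream, was found in lists 1 and 3 only. Srsf2 overlaps Mfsd11 at its 5′ end, but neither region lay under that gene.

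Members with a second, atypical RNA recognition motif ranged from many sites to few. Srsf6, known in skin from work on wound repair and tumours, held 11, 5 and 11 sites, or 1.6 ± 0.406 per 10000 (SD, n = 3 lists), and had the highest density of the family, at 1.6 sites per kb of span and list. Its shared region, at chromosome 2, 162933426 to 162933437 on the plus strand, was 1918 nt from the 5′ end. Best scores there were 35.6, 26.6 and 60.0 (percentiles 79.2, 74.7 and 86.5), with the best nucleotides within 1 nt of each other. The other 7 regions of Srsf6 were found in 1 or 2 lists, and 3 of them lay in close succession between 162936133 and 162936183, within the last 1000 nt of the gene.

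Srsf1, the founding SR protein and a proto-oncogene, held 6, 6 and 4 sites, or 1.02 ± 0.418 per 10000 (SD, n = 3 lists). Its shared region, at chromosome 11, 88049922 to 88049931 on the plus strand, rested on 1 site per list. Those of lists 2 and 3 fell on the first nucleotide, with scores of 1.44 and 89.8, and that of list 1 on the last, with a score of 22.4. The region was therefore lost when sites were joined within 5 nt or when regions of different lists had to overlap, and 6 members then held a shared region. A stronger region 20 nt upstream, at 88049896 to 88049901, scored 75.1 in list 1 and 85.2 in list 3, on the same nucleotide, and was absent from list 2.

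Srsf9 encodes SRp30c, the closest relative of SRSF1. It held 2, 2 and 6 sites, so that list 3 had most of them. All lists had their best site on the same nucleotide of the region at chromosome 5, 115330589 to 115330592, plus strand, with scores of 31.1, 17.5 and 98.0. The last was the highest score of any member site, at percentile 94.5 of list 3. The site printed above, 40 nt from the 5′ end, was found in list 3 only, with a score of 21.3.

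Srsf5, Srsf11 and Srsf4 had no region in all 3 lists. Srsf5, a growth-induced member, held 8, 2 and 3 sites. Its best region, at chromosome 12, 80950076 to 80950080 on the plus strand and 427 nt before the 3′ end, scored 68.4 in list 1 and 62.2 in list 3 on the same nucleotide, but list 2 had no site in it. Without list 2, Srsf5 thus counted as having a shared region.

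Srsf11, which encodes an SR-related protein that contacts the factors of the 3′ splice site, held 1, 2 and 1 sites. They lay near the middle of the gene, and those of lists 1 and 2 coincided at chromosome 3, 158023875, minus strand, with scores of 20.8 and 17.2. Srsf4, the member with the longest arginine and serine tail, held 3 sites in list 1 and 0 in lists 2 and 3. Depth is unknown, so these low counts do not show that the RNA was not bound.

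**Figure D2:**
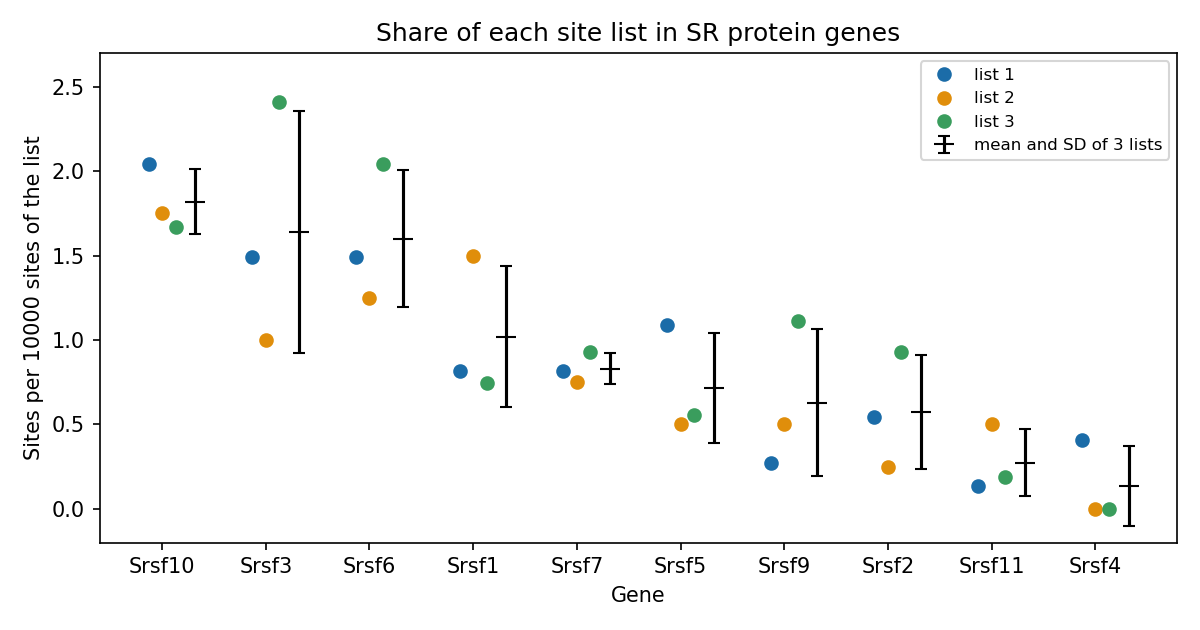
Sites in each gene per 10000 sites of the list. Points are the 3 lists, and black bars show their mean and SD; genes are ordered by the mean. Srsf10, Srsf3 and Srsf6 lead with means of 1.82, 1.64 and 1.6, and Srsf4 is last with 0.136.

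Ordered by sites per 10000, the means ran from Srsf10 and Srsf3 through Srsf6, Srsf1, Srsf7 (0.831), Srsf5 (0.715 ± 0.324, SD, n = 3 lists), Srsf9 (0.628 ± 0.436) and Srsf2 (0.574 ± 0.34) to Srsf11 (0.274 ± 0.197) and Srsf4 (0.136 ± 0.235). For all 9 pairs of neighbours in this order the ranges over lists overlapped, so no neighbour differed beyond the spread. The ends of the order did stand apart: the lowest value of Srsf10 was 1.67, and the highest values of Srsf11 and Srsf4 were 0.5 and 0.408.

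Within the 10 shared regions the sites of the lists lay close together, which joining in steps of at most 10 nt favours by itself. The regions were 2 to 17 nt long, with a median of 7.5 nt. In 8 of them at least 1 nucleotide had a site in each list. The best nucleotides of the 3 lists were identical in 2 regions, those of Srsf9 and of Srsf10 at 8553 nt, and within 1 nt in 5. The same counts over the shared regions of all genes are not given, so whether this is particular to the members was not tested. Over all member nucleotides with a site, 10.4% of 106 had one in all 3 lists (95% exact Clopper-Pearson interval 5.3 to 17.8), against 12.7% of 114459 nucleotides in the whole lists (12.5 to 12.9). Nucleotides of a region are not independent, so both intervals are too narrow.

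**Figure D3:**
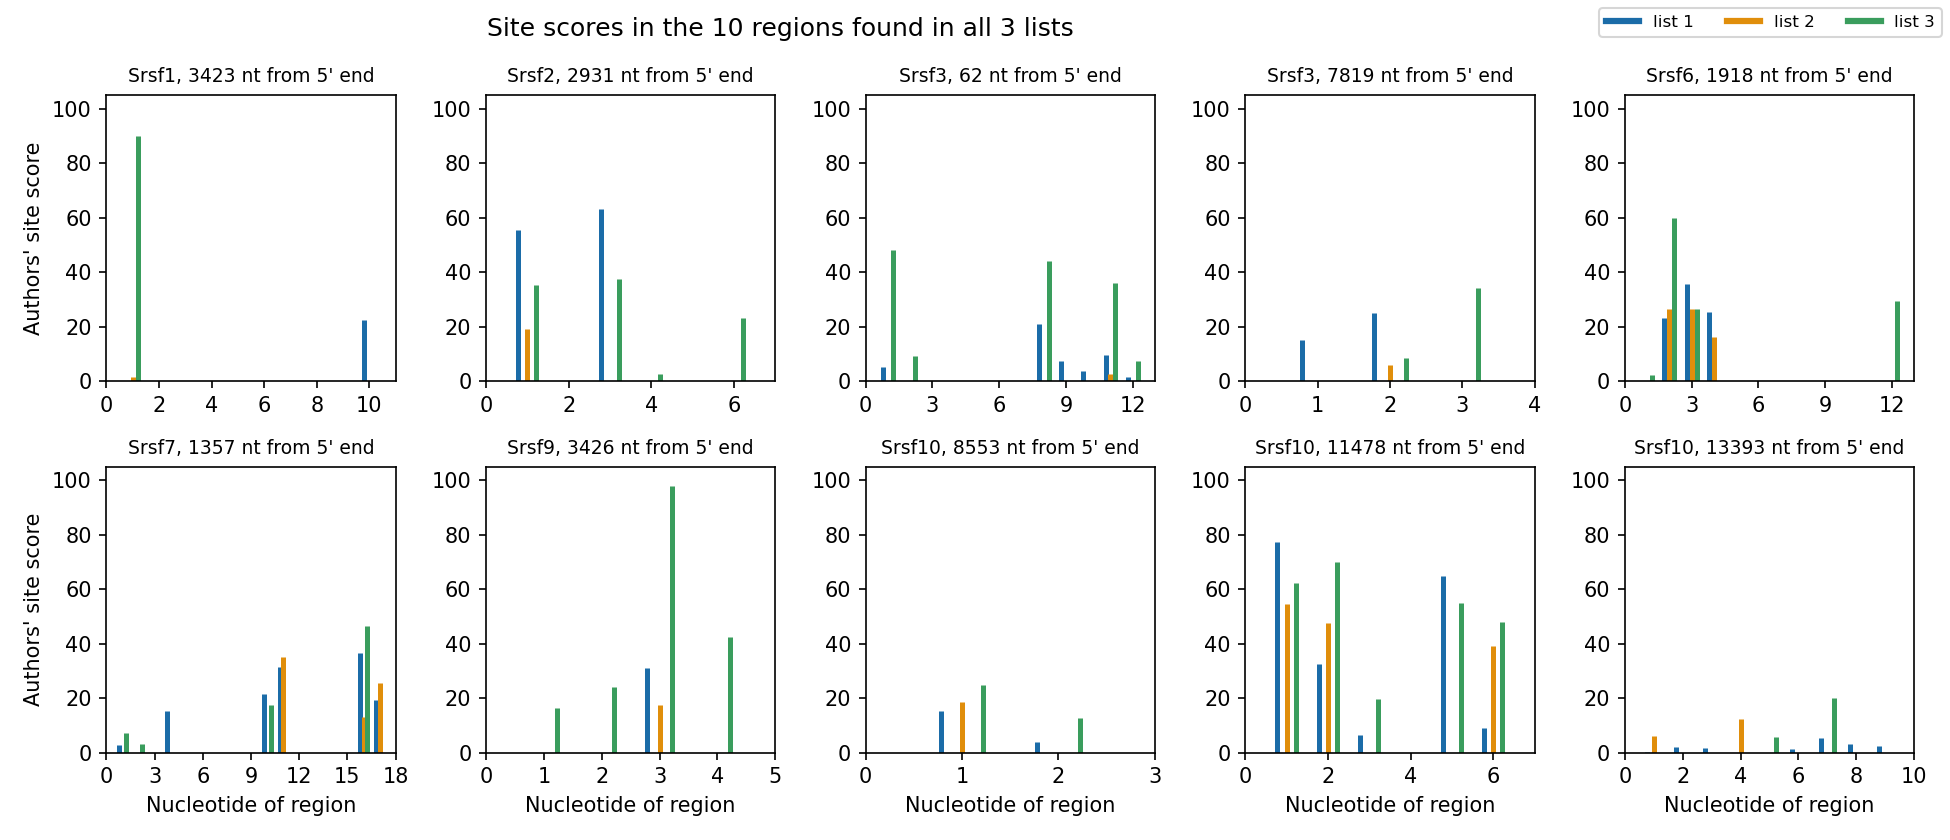
The authors' site score at each nucleotide of the 10 regions found in all 3 lists. The x axis counts nucleotides from the 5′ end of the region on the RNA strand, and colours are lists. In Srsf10 at 11478 nt all lists score the first nucleotides highly (best 77.3, 54.7 and 70.0), whereas in Srsf1 list 1 has its single site at the far end of the region.

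Best scores of these regions were mostly above the middle of their list. Taking the best of several sites of a region favours this by itself. Of 30 best sites (10 regions in 3 lists), 25 had a score above the list's median, with percentiles from 7.46 to 94.5. The 5 below were list 2 sites in Srsf1 and in both Srsf3 regions, and the list 1 and list 2 sites of Srsf10 at 13393 nt. Averaged over lists, the percentile had a median of 67.5 in the member regions and 75.3 over all regions found in all 3 lists. Single member sites did not stand out by score, with median percentiles of 42.6, 49.9 and 53.8 in lists 1, 2 and 3. When only the 50% of sites with the highest scores in each list were kept, 6 shared regions were found in 5 members, and Srsf1 and Srsf3 held none.

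**Figure D4:**
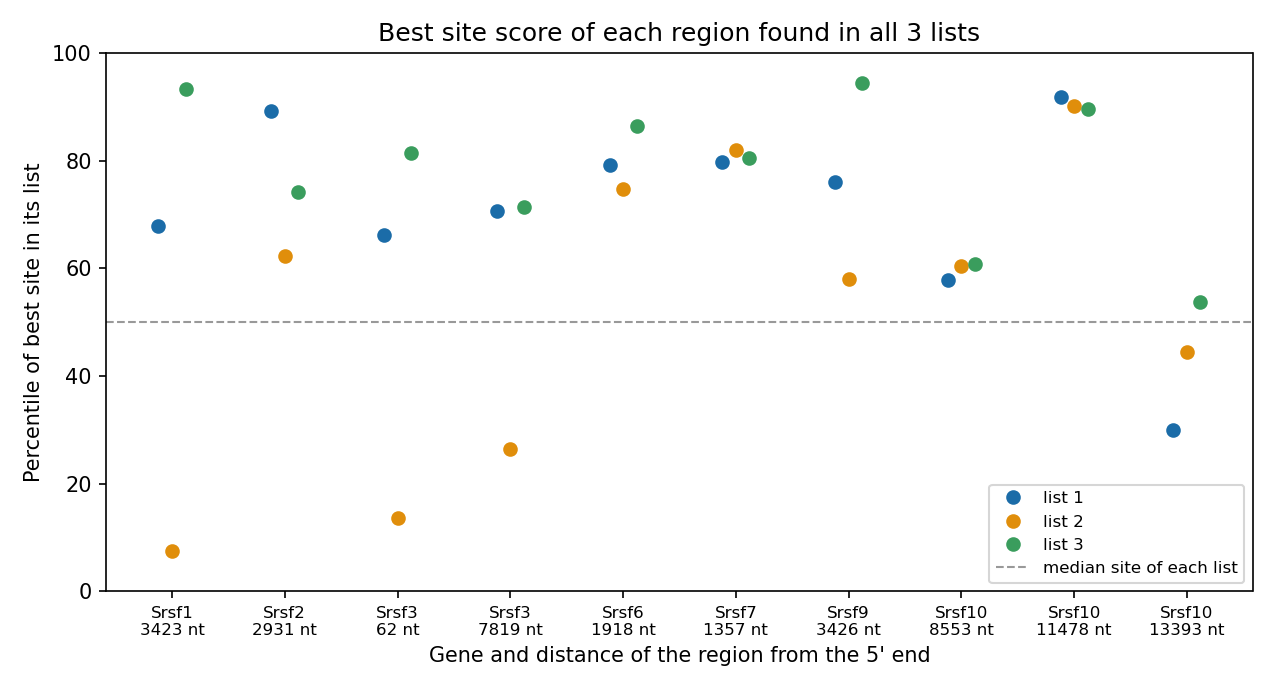
Percentile of the best site of each shared region among all sites of its list. Points are lists 1, 2 and 3, and the dashed line marks the middle of each list. The points of Srsf7 and of Srsf10 at 11478 nt lie close together, and list 2 is lowest in Srsf1 (7.46) and in Srsf3 at 62 nt (13.6).

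Counting all lists, the members held 44 regions, of which 10 were found in 3 lists, 13 in 2 and 21 in 1. The share found in all 3 was 22.7% (95% exact interval 11.5 to 37.8), and 18.5% (18.1 to 19.0) over the 25770 regions in all protein-coding genes with a strand. These intervals overlap and cover counting error only. Of the regions found in 2 lists, 7 were missing from list 2, 3 from list 1 and 3 from list 3. List 2 had the fewest sites overall (40014, against 73602 in list 1 and 53864 in list 3), and the part of this in the missing regions was not tested. Without list 2, 47.2% of the members' regions were found in both other lists. The same values over all protein-coding genes are not given, so whether this is particular to the members was not tested.

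**Figure D5:**
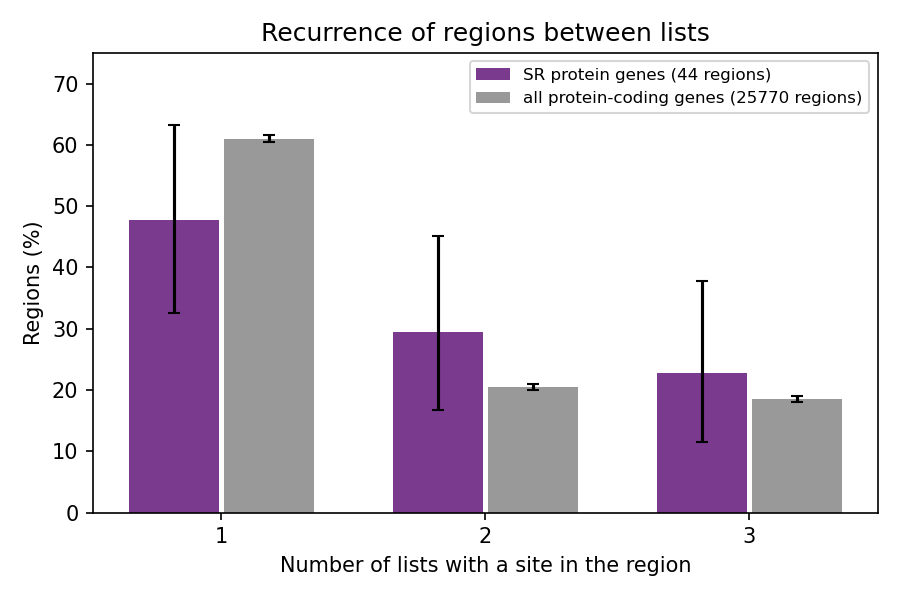
Percent of regions found in 1, 2 or 3 lists, for the 44 regions of the SR protein genes and the 25770 regions of all protein-coding genes. Error bars are 95% exact binomial intervals. The bars of the SR protein genes for 3 lists (22.7%) and of all genes (18.5%) have overlapping intervals.

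Shared regions were spread along the SR protein genes. Of the 10, 2 lay within the last 1000 nt of the gene (in Srsf2 and Srsf10) and 1 within the first 1000 nt (in Srsf3). Over all protein-coding genes with spans of at least 4000 nt, the last 1000 nt held 20.1% of 4543 such regions and the first 1000 nt 9.58%. Restricted to members of at least that span, which leaves out Srsf2, 1 of 9 regions (11.1%, 95% exact interval 0.281 to 48.2) was at the 3′ end and 1 at the 5′ end. This interval includes the 20.1% of all genes, and is wide because the regions are few. Among 1740 such regions of genes within the members' range of span, 29.7% lay at the 3′ end and 14.5% at the 5′ end by the same windows. With spans of at least 4000 nt, the median position was 51.3% of the way from the 5′ end for the 9 member regions and 76.0% for the regions of all genes. It was 55.9% for all 10 shared member regions and 67.0% for the 44 member regions found in any number of lists. The 9 regions are too few to place the members apart. Without list 2, 6 member regions shared by the other lists lay in the last 1000 nt, and no such count over all genes is given.

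Among the other genes around SR proteins, ESRP1 regions reached kinases, export factors and the decay machinery. Of 42 listed genes with a strand, 22 (52.4%) held a region in all 3 lists, and 6 held no site. The share over all protein-coding genes was 16.5%. Among those with a site in any list it was 48.5%, which has another basis than 52.4%, since the 42 include the 6 without a site. Spans of the listed genes ran from 3896 nt in Alyref to 238595 nt in Smg6 and were not matched. The list was drawn up with earlier results of these data known, so its count is a description.

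By role, 9 of 20 SR-like and SR-related genes held a shared region, 5 of 8 kinase and import genes, 2 of 2 export genes, 3 of 6 splice site genes and 3 of 6 decay genes. Srpk1, a cytoplasmic kinase that phosphorylates SR proteins before import, held 3 shared regions and 13, 8 and 17 sites. Tnpo3, the import receptor of phosphorylated SR proteins, held 2 regions with 13, 5 and 14 sites. Alyref, an export adaptor that binds spliced mRNA, held 3 regions with 19, 12 and 13 sites in a span of 3896 nt. The spans of Srpk1 and Tnpo3 are far longer, at 34881 and 69032 nt, so their site counts are not set against those of the SR protein genes.

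Acin1, which encodes an SR-related protein that joins the complex at exon junctions, held 3 shared regions with 10, 10 and 17 sites. Upf1, the helicase at the centre of nonsense-mediated decay, held 3 with 19, 9 and 17 sites, and Smg1, the kinase that phosphorylates UPF1, held 2 with 18, 9 and 12 sites. Each of these had sites in all lists.

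Tra2a, an SR-like activator of exons, held 2 regions with 8, 2 and 11 sites. Luc7l2, a partner of the U1 particle, held 2 with 25, 9 and 19 sites. Prpf8 and Sf3b1 encode core proteins of the spliceosome. They held 2 regions each, with 9, 5 and 8 sites in Prpf8 and 4, 2 and 5 sites in Sf3b1.

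Sites in marker genes depend on ESRP1 being in the same cell as the RNA, so they do not check the labelled tissue. For scale, 34.1% of all protein-coding genes held a site in any list, counted on their own strand only. Of 13 keratinocyte markers 10 held a site on either strand, with 196, 132 and 184 sites in all, but Krt14, Krt1 and Lor held none. Endothelial (4) and muscle (3) markers held no site. Of the fibroblast markers 2 of 6 held sites (2, 4 and 1), of the melanocyte markers 1 of 5 (3, 2 and 0) and of the immune markers 1 of 5 (7, 5 and 5). The part of other cell types in the SR protein counts was not tested.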

How the data were processed

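Sites were called by the authors on 2 immunoprecipitates at a time with input, per the file headers, and each deposited score is the authors' own value without a stated scale. Tools named in the submitters' processing notes, without roles, are HOMER, HISAT2 2.1.0 and cutadapt 1.16, with the builds GRCm38 and mm10. How PCR duplicates and multiply aligned reads were handled is not given in the sources used, and could add or remove sites in genes with copies. Gene spans came from a GRCm38.p6 RefSeq table (21900 protein-coding genes), and strand from RefSeq start windows (250 nt before to 50 nt after each start), which gave a strand for 17492. All 10 members and 42 of 47 listed related genes matched. Pooled sites were joined along a strand in steps of at most 10 nt, and a region was assigned by its middle. Joining was tested on simulated data. No test between groups was run, because there is 1 condition. The members and lists were chosen with earlier results of these data known. All members were named, with each region found in all 3 lists, and the 10 related genes with most such regions; other regions were picked after their values were seen. Python 3.11.15, numpy 2.4.6, pandas 2.3.3 and scipy 1.17.1 were used. Alternatives were other joining distances, overlap, scores, spans, windows and lists.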

Additional observations from a re-analysis of the deposited data

How the results depend on the processing

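No paired analysis was possible because each list pools replicates and input has no list of its own. Leaving out each list, so that a region had to be in both others, gave 7 to 8 members with a shared region, 13 to 17 shared regions, 34.2% to 47.2% of regions shared, 2 to 6 of them in the last 1000 nt, and 24 to 27 related genes with a shared region. The highest of the region values came without list 2. With only the 50% of sites with the highest scores, the members held 6 shared regions, 1 of them in the last 1000 nt, and mean sites per list were 3.33 in Srsf1, 3.0 in Srsf3, 4.0 in Srsf6, 0.333 in Srsf4, 2.67 in each of Srsf5 and Srsf7, 5.0 in Srsf10, 0.667 in Srsf11 and 2.0 in each of Srsf2 and Srsf9. This filter removes sites by construction. No shared region lay in the last 500 nt (0, against 2 within 1000 nt). Joining within 5 or 25 nt, requiring overlap, extending spans by 1000 nt and leaving out regions under other genes kept the number of members at 6 or 7 and the number of shared regions at 9 to 12. Counting sites on either strand, done for the mean sites of each member only, changed none of these means. Depth is unknown, so absent sites are not evidence of absent binding.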

Other observations

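Regions of a member often lay close to another region of the same gene. Of 34 pairs of neighbouring regions, 8 were at most 30 nt apart, in 6 members, with gaps of 12 to 27 nt. These were Srsf1, Srsf2, Srsf3, Srsf5, Srsf6 and Srsf10. In Srsf5 the stretch 12 nt downstream of the strong region near the 3′ end held a further list 1 site with a score of 61.2, close to the 68.4 of that region. In Srsf6, joining within 25 nt merged such neighbours and gave 2 shared regions in place of 1. Clustering was not compared with other genes.

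Outside the spans, 1 site lay within 1000 nt of any member on its strand, downstream of the 3′ end of Srsf1 and in list 1 only.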
